A study of Mus musculus with 5 samples.

Results

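Mouse embryonic stem (ES) cells were compared with the culture that they had formed by Day7 of differentiation towards spinal motor neurons. The comparison used 2 of the 5 arrays of the series, the ES array and the Day7 array, which were chosen by their labels as the first and the last time point. Both samples were wild type and male, and total RNA of each was hybridised to 1 one-colour Agilent array. The ES sample was undifferentiated cells. The source label of the Day7 sample calls it motor neurons after 5 days of retinoic acid (RA), its tissue label reads embryoid bodies, and its treatment text gives RA and Shh from day 2 to day 5, so the length of the RA treatment is not settled. The paper gives the smoothened agonist SAG where the labels give Shh, and the labels do not name the ES line or describe a sort of the cells before RNA extraction.

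Each time point had 1 array and thus no replicate spread, and no test was made. Sizes of change are therefore given without a p-value, and a gene is counted as raised or lowered where the change was 2-fold or more. Day7 was the array on slide 2 and the other 4 arrays shared slide 1, so the effect of the slide and that of the time point cannot be told apart in any value below. In a bulk sample, fewer cells of a type and less RNA per cell cannot be told apart either. Levels are log2 signals after quantile normalization, comparable between arrays for the same probe and not between probes. Where a probe was not well above background on an array, that side was raised to a floor, the dimmest probe well above background on the array (5.01 on ES and 4.66 on Day7), unless its own signal was brighter, and the change is written as at least that size.

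RA and hedgehog signalling turn ES cell aggregates into ventral spinal progenitors. RA gives the neural tube its posterior, hindbrain and spinal address, and a graded hedgehog signal from the floor plate sorts ventral progenitors into domains, of which the Olig2-expressing domain yields motor neurons. Floor plate cells arise at the highest hedgehog exposure, and glial precursors leave the same ventral domains after neurons have formed. A culture of this kind can therefore hold motor neurons, other ventral neurons, floor plate cells, progenitors, glial precursors and undifferentiated ES cells side by side.

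Of 19893 genes with a matched probe, 15831 had a value in the comparison, of which 13850 were measured on both arrays, 1900 were bounds and 81 had no fold. A total of 3675 genes were raised (23.2% of those with a value) and 3867 were lowered (24.4%), and the median change over all genes was -0.07 on the log2 scale. The counts of raised and lowered members of each gene list are to be read against these shares of all genes. The balance of the counts turned with the scaling: 3286 raised and 5110 lowered under scaling to the 75th percentile, and 4129 raised and 3609 lowered with no normalization. Rises reached larger sizes than falls: 557 genes rose at least 16-fold and 156 fell that much. The ES array had 59.2% and the Day7 array 62.4% of mouse probes well above background (86.7% on Day2, where dimmer signals passed), and the median SD between spots of the same probe was 0.07 and 0.06 log2 units over 432 probes. That SD covers technical error within an array only, and the number of arrays limits the precision of all values.

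Of the 4 genes taken as markers of the endpoint, those of neurons, motor neurons and floor plate rose and that of ES cells fell. Dcx, which encodes the microtubule-binding protein doublecortin of young migrating neurons, had log2 levels of 3.99 (not well above background) in ES cells, then 6.99, 6.15 and 8.02 up to Day4, and 15.60 on Day7, a rise of at least 10.59 log2 units (at least 1543-fold). Its other 2 probes rose by at least 5.04 and 4.33. Isl1, a LIM homeodomain factor that specifies motor neurons, stood at 7.18, 5.94, 5.34 (Day3, not well above background), 8.19 and 13.25 from ES to Day7, a change of 6.06 (66.9-fold). Day7 was far above the other 4 arrays for both genes.

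Foxa2, the forkhead factor that specifies the floor plate, had log2 levels of 6.59, 9.55, 10.36, 11.52 and 14.12 from ES to Day7. It climbed at every step, unlike Dcx and Isl1, and ended 7.54 above ES, with at least 6.49 on its other probe. Pou5f1 (Oct4), a transcription factor that holds ES cells in the pluripotent state, read 12.39, 11.68, 10.01, 8.90 and 8.22 from ES to Day7. It fell at every step, by 4.17 in all, to 5.55% of its ES signal, and was still well above background on Day7.

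**Figure D1:**
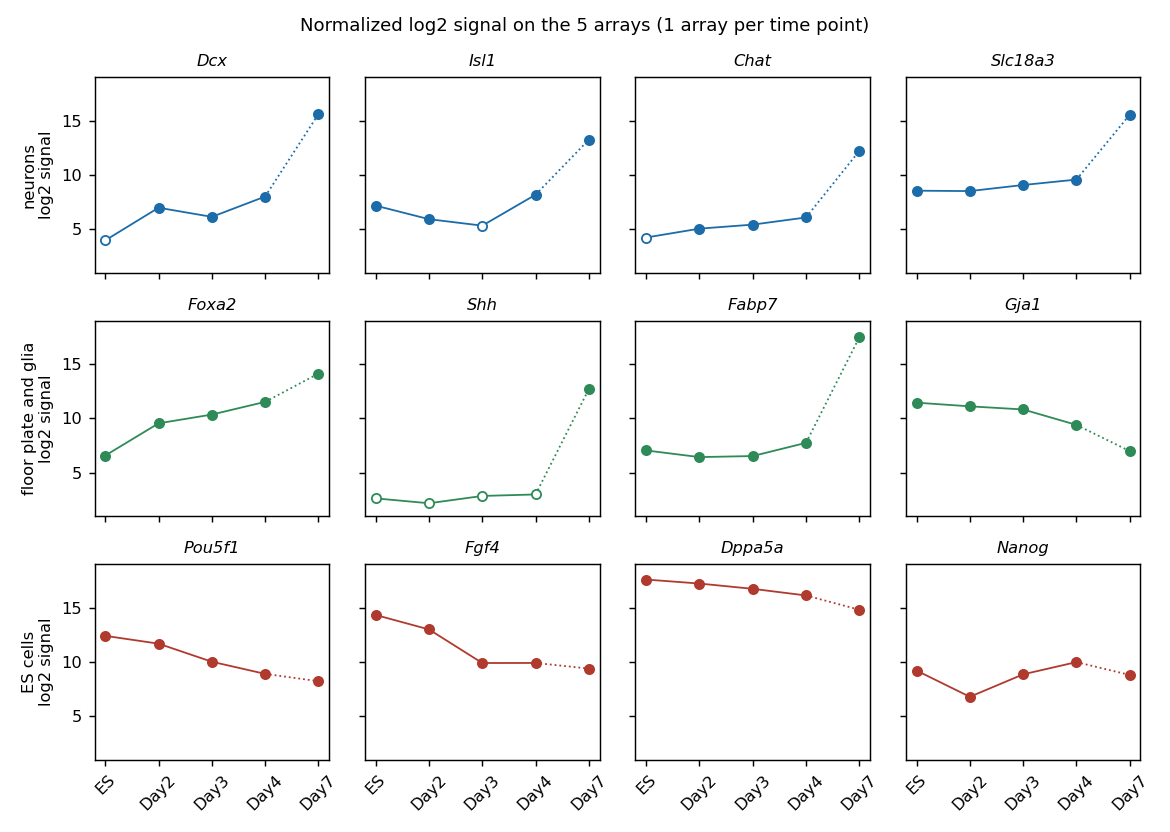
Log2 signal (quantile-normalized) of marker genes on the 5 arrays, 1 point per array, with open points where the probe was not well above background; the last step is dotted because Day7 is on the other slide. Dcx reached 15.60, Isl1 13.25 and Foxa2 14.12 on Day7, while Pou5f1 dropped from 12.39 on ES to 8.22.

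Promoter sequence from RefSeq (GRCm38.p6, 250 bases before to 50 after the annotated start) is shown for example genes from both directions of the change. These are Isl1 and Chat of motor neurons, Syt1 of the synapse and Zfp296 of the ES state. The capitals mark CAGCTG, an E-box that many neuronal basic helix-loop-helix factors can bind, in the first 3, and the octamer ATTTGCAT, the recognition sequence of POU factors such as Oct4, in Zfp296. Both motifs were chosen after the values were seen and were searched on both strands. Only promoters that hold the marked motif are shown, so they do not stand for the other promoters of their lists. The windows are chr13:116309639-116309938 (minus strand) for Isl1, chr14:32465860-32466159 (minus) for Chat, chr10:109009062-109009361 (minus) for Syt1 and chr7:19577037-19577336 (plus) for Zfp296, and each sequence reads 5′ to 3′ along its gene.
Isl1: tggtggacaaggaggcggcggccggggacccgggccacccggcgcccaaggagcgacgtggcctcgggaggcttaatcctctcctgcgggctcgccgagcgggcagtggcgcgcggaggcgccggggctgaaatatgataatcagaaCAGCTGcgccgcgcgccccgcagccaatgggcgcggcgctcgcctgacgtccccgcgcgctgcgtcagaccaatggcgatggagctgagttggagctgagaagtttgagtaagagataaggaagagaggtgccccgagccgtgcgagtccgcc
Chat: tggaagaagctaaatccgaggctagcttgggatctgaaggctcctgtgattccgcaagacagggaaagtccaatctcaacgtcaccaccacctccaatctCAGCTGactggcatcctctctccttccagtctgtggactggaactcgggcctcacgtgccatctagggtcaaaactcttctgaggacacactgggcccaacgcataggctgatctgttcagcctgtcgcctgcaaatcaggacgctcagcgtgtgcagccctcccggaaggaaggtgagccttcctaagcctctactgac
Syt1: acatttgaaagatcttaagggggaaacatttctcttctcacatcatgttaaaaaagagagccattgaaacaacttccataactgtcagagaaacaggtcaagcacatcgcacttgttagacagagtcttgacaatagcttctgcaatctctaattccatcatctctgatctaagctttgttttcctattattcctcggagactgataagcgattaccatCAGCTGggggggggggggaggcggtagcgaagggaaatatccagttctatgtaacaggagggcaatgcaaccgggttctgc
Zfp296: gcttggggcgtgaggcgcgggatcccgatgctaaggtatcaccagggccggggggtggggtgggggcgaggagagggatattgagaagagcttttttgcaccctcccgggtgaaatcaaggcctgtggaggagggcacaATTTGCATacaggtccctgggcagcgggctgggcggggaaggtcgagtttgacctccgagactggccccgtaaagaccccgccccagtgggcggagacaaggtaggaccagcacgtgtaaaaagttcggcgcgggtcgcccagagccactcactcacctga

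The E-box starts 103 bases before the start of Isl1, 150 before that of Chat and 31 before that of Syt1, and the octamer 111 before that of Zfp296. Over 27025 genes with a promoter in the table, 18.3% held the E-box and 1.97% the octamer. The E-box was present in 9 of 19 promoters of synaptic genes (47.4%), 8 of 20 of pan-neuronal genes (40.0%), 5 of 19 of motor neuron genes (26.3%), 5 of 21 of pluripotency genes (23.8%) and 1 of 13 of floor plate genes (7.69%). The octamer was found in 2 of 21 promoters of pluripotency genes, Zfp296 and Zfp42, and in 1 of 20 of pan-neuronal genes, Myt1l. These are counts of letters in short windows and not of bound sites.

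Genes used by neurons of any kind rose almost without exception. Of 30 pan-neuronal genes, 29 were raised and none was lowered, against 23.2% raised among all genes, and their median change was 4.66 (4.92 over the 24 measured on both arrays). For 27 of the 30 the Day7 array was the highest of the 5, and for all 30 it was above Day4; over all genes with a value the shares were 31.6% and 45.5%. Nefm, a neurofilament subunit, went from 7.93 on ES and 8.30 on Day4 to 15.88 on Day7, a change of 7.95. Chgb (7.79), a granin of secretory granules, Stmn3 (7.62), a tubulin-binding protein, and Map2 (6.81), the dendritic microtubule protein, rose by similar amounts. Myt1l, a zinc finger factor that represses non-neuronal genes, rose by at least 7.0.

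The neuronal rise was late. Tubb3, the neuronal beta-tubulin, lay between 11.54 and 12.32 on the 4 arrays from ES to Day4 and at 16.50 on Day7 (change 4.79). Stmn2 and Ina, an intermediate filament of neurons, were lower on Day4 (10.13 and 11.31) than on ES (13.06 and 13.35) before they reached 17.22 and 17.10 on Day7. These genes were thus well above background in undifferentiated cells. Nefh, the heavy neurofilament subunit of mature axons, was the member that was not raised: it was 13.03 on ES, 9.40 on Day4 and 12.29 on Day7, a change of -0.74.

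Synaptic genes were raised less evenly. Among 25 genes of vesicles, release machinery and postsynaptic scaffolds, 17 were raised (68.0%, against 23.2% of all genes). Of the others, 1 was lowered (4.0%, against 24.4%) and 7 changed by less than 2-fold, and the list median was 2.72. Syt1, the calcium sensor of vesicle release, rose from 5.83 to 13.01 (7.18), Bsn, a scaffold of the active zone, by 6.57, and Rab3a, a vesicle GTPase, by 5.5. Syn2, which tethers vesicles, rose by at least 5.37. The widely used vesicle and membrane markers Syp and Snap25 were already at 12.43 and 13.53 on ES and changed by 0.99 and 0.79.

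Different probes of a synaptic gene could give different answers. The brightest probe of Rab3c, which stands for the gene here, changed by 0.36, and another of its probes went from 2.68 (not well above background) to 13.74, a rise of at least 8.73. Pclo, an active zone scaffold, changed by 0.09 on its brightest probe, while its other probes rose by 3.92, at least 3.70 and at least 2.58. Of the 2182 genes with several probes that were raised or lowered, 84 had another probe that moved 2-fold or more the opposite way. Rims1, which encodes a release-site protein, was the synaptic gene that was lowered, from 13.04 to 6.79 (-6.25), while its other probe changed by -0.26. This fall is set beside the array's spike-in probes below.

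Motor neuron genes were raised in 19 of 21 cases with a value, with a median of 5.38, and none was lowered. For 18 of the 21 the Day7 array was the highest. The cholinergic genes rose together. Chat, which makes acetylcholine, was at 4.25 on ES (not well above background), between 5.07 and 6.09 from Day2 to Day4, and at 12.21 on Day7, a rise of at least 7.20. Slc18a3, the vesicular acetylcholine transporter that lies within the Chat locus, went from 8.56 to 15.54 (6.98). Slc5a7, the choline transporter, rose by 5.89 and Slc10a4, a vesicle protein of cholinergic cells, by at least 6.59. Ache, which breaks acetylcholine down, rose by 2.67. All parts of cholinergic transmission on the list were thus higher on Day7.

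Ecel1, a membrane peptidase needed for motor axon branching, rose from 9.10 to 16.63 (7.53). Ret, the receptor for the trophic factor GDNF, rose by 5.67, and its co-receptor Gfra1 by at least 3.21. Among the transcription factors, Isl2 rose by 5.38, Lhx4 by at least 5.64 and Onecut2 by 5.58. Lhx3, which pairs with Isl1 in new motor neurons, had log2 levels of 8.99, 9.37, 7.10, 9.50 and 11.27 and rose less, by 2.28. Pvalb (-0.65) and Cdh20 (-0.40) were the members without a rise. Mnx1 (Hb9), the usual marker of these neurons, had no matched probe and is not analysed here.

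**Figure D2:**
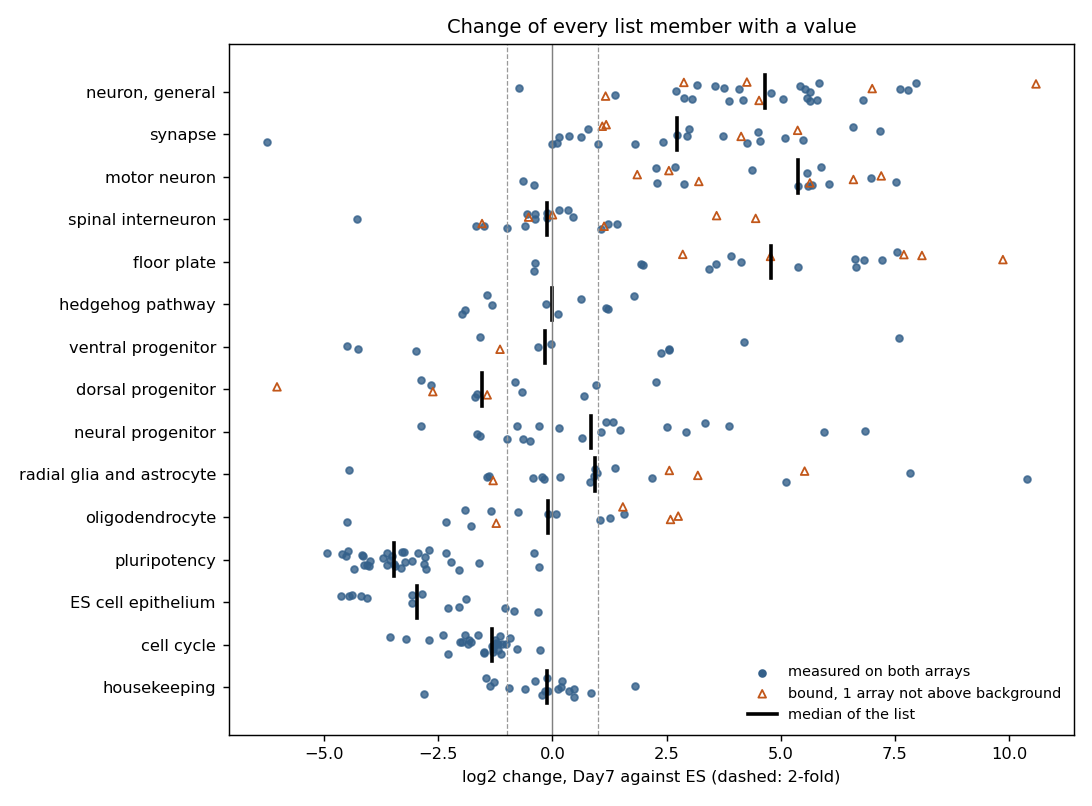
Log2 change from ES to Day7 of the members of each gene list, 1 point per gene, for 15 of the lists, with the list median as a bar; open triangles are bounds and the dashed lines mark 2-fold. The medians of pan-neuronal (4.66), motor neuron (5.38) and floor plate genes (4.78) lie high and those of pluripotency genes (-3.46) low, while interneuron and oligodendrocyte genes lie on both sides of 0.

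Genes that mark motor columns and pools gave a mixed picture, with 6 raised, 2 lowered and 7 between of 15, and a median of 0.00 (-0.08 over those measured on both arrays). The shares raised and lowered were 40.0% and 13.3%, against 23.2% and 24.4% of all genes. Nkx6-1, a progenitor factor that persists in subsets of motor neurons, rose by 7.59. Aldh1a2, the RA-synthesising enzyme of limb-level motor neurons and meninges, was flat from ES (8.19) to Day4 (7.76) and reached 14.85 on Day7 (6.66). Esrrg, an orphan receptor of gamma motor neurons, rose by at least 6.07, and Zeb2 by 4.03. Foxp1, a determinant of limb-innervating columns, and Lhx1, a factor of the lateral column, did not move by 2-fold (-0.51 and -0.11), although another Foxp1 probe rose by at least 1.16. Etv4, a motor pool factor (-2.24), and Pou3f1, a POU factor also known from ES cells (-2.89), were lowered. Runx1, another motor pool factor, changed by 0.09 on its brightest probe and is counted as between, although its other probe rose by at least 4.51.

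Of 6 genes of visceral and hindbrain motor neurons, 5 were raised and none was lowered. Phox2a, a homeodomain factor of these neurons, rose by 2.42, Tbx2 by at least 6.56 and Tbx20, a T-box factor of cranial motor neurons, by 2.31. Hoxb1, which patterns the hindbrain, was 11.24 to 11.74 from Day2 to Day4 and only 6.31 on Day7, still at least 1.30 above ES.

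Interneuron genes moved about as often as all genes. Of 22 spinal interneuron genes with a value, 6 were raised (27.3%) and 4 lowered (18.2%), close to the 23.2% and 24.4% of all genes, and the median was -0.12. Sim1, the marker of V3 interneurons, a ventral class, reached 8.60 on Day7, at least 3.59 above ES, and was well above background on no other array. Uncx (1.41), Lhx5 (1.21), Tlx1 (at least 1.13) and Gata3 (1.07) rose less. En1, the V1 marker, and Evx2 were not well above background on either array, and neither were Tlx3 and Prrxl1 of dorsal classes, Barhl2, Pax5, Vsx1 or the brightest probe of Lhx9. Another Lhx9 probe rose by at least 0.39. The lowered genes were Foxd3 (-4.28), Pou4f2 (-1.67), Lbx1 (at least 1.54 down) and Barhl1 (-1.51).

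Markers of transmitters other than acetylcholine were present as well. Slc17a6, a vesicular glutamate transporter used in the spinal cord and brainstem, rose by 5.30 to 10.43. Raised were 3 of 5 glutamate genes (60.0%, against 23.2% of all genes). Gad2 and Gad1, which make GABA, were not well above background on ES and at 8.4 and 6.61 on Day7 (at least 3.39 and 1.60 higher), whereas their vesicular transporter Slc32a1 changed by 0.44. Of 9 monoamine genes 4 were raised (44.4%, against 23.2% of all genes). Slc18a2, the vesicular monoamine transporter, rose by 4.72, Dbh by at least 3.54, Slc6a2, the noradrenaline transporter, by at least 2.15, and Th by 2.04. Tph2 and Slc6a3, which mark serotonin and dopamine neurons, were not well above background on either array. Of 16 sensory and neural crest genes 7 were lowered (43.8%, against 24.4% of all genes) and 3 raised (18.8%, against 23.2%), with Ntrk3 (5.60), Ngfr (4.98) and Ets1 (1.21) the raised ones and Sox10 at 0.07. Ntrk2 changed by -1.37 on its brightest probe and rose by at least 5.18 on another. The other Ets1 probe stood at -0.04.

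Floor plate genes rose together. Of 19 with a value, 17 were raised and none was lowered, with a median of 4.78 (4.02 over those measured on both arrays), and 15 were highest on Day7. Shh, the hedgehog ligand itself, had log2 levels of 2.65, 2.20, 2.87 and 3.01 on ES, Day2, Day3 and Day4, all not well above background, and 12.71 on Day7, at least 7.70 higher. Vtn, a matrix protein secreted by the floor plate, rose from 3.15 (not well above background) to 14.88, at least 9.87 higher, and was still at 6.75 on Day4.

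The secreted axon guidance cues of the floor plate were raised too. Slit2 (7.23) and Slit1 (6.65), which repel commissural axons, Ntn1 (6.82), which attracts them, and Spon1 (6.62), an adhesion protein for them, rose by similar amounts. Motor neurons also express Slit genes, so these are shared markers. The forkhead factor Foxa1 rose by 5.37, Ferd3l by at least 4.78 and Foxj1, the factor for motile cilia, by 4.14. Lmx1a and Lmx1b, which mark the midbrain floor plate, changed by -0.41 and -0.39, and Gdf10 was not well above background on either array.

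Genes of the hedgehog pathway, targets as well as transducers and co-receptors, moved both ways. All 10 were at their highest on Day4 (13.9% of all genes were), and from ES to Day7 3 were raised and 4 lowered, against 23.2% and 24.4% of all genes, with a median of -0.01. Gli1, the transcriptional target most used as a readout of the pathway, was at 11.88 on ES, 12.81 on Day4 and 9.89 on Day7, down by 1.99. The receptor Ptch1 went from 8.19 on ES through 10.15 on Day4 to 8.05 on Day7 (-0.15). Gli2 (-1.31) and Gli3 (-1.91) were lowered too, and the co-receptors Boc (1.79) and Gas1 (1.16) and the inhibitor Hhip (1.21) were raised. Gas1 is uncertain, with another of its probes at -0.99.

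Ventral progenitor genes split evenly, with 5 of 12 raised and 5 lowered (41.7% each, against 23.2% and 24.4% of all genes). Olig2, the factor of the motor neuron progenitor domain, had log2 levels of 10.34, 8.47, 7.87, 11.47 and 7.35 from ES to Day7. It peaked on Day4 and ended as the lowest of the 5 arrays, 2.98 log2 units below ES. Olig1 (-4.50), Foxn4, a V2 domain factor (-4.27), Pax6 (-1.60) and Prdm12 (at least 1.15 lower) were the other falls. Pax6, shared by several progenitor domains, and Dbx1, from a domain dorsal to that of motor neurons, had been 10.28 and 11.39 on Day4, and Dbx1 was back below the background limit on Day7. Raised were Nkx6-1 (7.59), Irx3 (4.19), Irx5 (2.56), Nkx2-2 (2.54), the factor of the most ventral neuronal domain, and Nkx6-2 (2.37). Of 12 dorsal progenitor genes with a value 7 were lowered (58.3%, against 24.4% of all genes), led by Zic2 (at least 6.03 lower) and Zic1 (-2.87). Olig3, which also marks V3 precursors, was raised by 2.26.

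General progenitor genes were raised in 10 of 20 cases and lowered in 3, with a median of 0.85. Gpm6a, a membrane protein shared with neurons, rose by 6.84, and Hes5, a Notch target, by 5.96 to 12.59 after 13.11 on Day4. Cdh2, the cadherin that replaces E-cadherin in neural tissue, rose by 3.87, and the intermediate filament genes Vim and Nes by 3.35 and 1.47. Sox1 rose by 1.33, while Sox2, shared by ES cells and neural progenitors, changed by -0.77. Against the list's direction, Zic1, Ccnd1 (-1.65), a driver of the G1 phase, and Pax6 were lowered.

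Proneural and newborn-neuron genes were raised in 10 of 20 cases and lowered in 3 (median 0.83). Nhlh2, a factor of newborn neurons, rose by at least 6.75, Srrm4, a splicing regulator of neurons, by 4.53, Sox11 by 3.75 and Sox4 by 3.38. Cbfa2t3, a corepressor in differentiating neurons, rose by 5.09, with another probe at -0.05. Neurog3, a proneural factor seen in the ventral cord, rose by 4.94. Neurog2, the proneural factor of motor neuron progenitors, was instead highest on Day4 (10.37) and at 7.06 on Day7, at least 2.05 above ES. Neurod1 (-2.06), Gadd45g (-1.83) and Neurog1 (at least 1.02 lower) were lowered.

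Of 20 astrocyte and radial glia genes with a value 8 were raised and 4 lowered, with a median of 0.93. Fabp7 (BLBP), a lipid-binding protein of radial glia, had log2 levels of 7.06, 6.45, 6.54, 7.76 and 17.45, a rise of 10.39 (1345-fold) that came almost all between Day4 and Day7. Sparcl1, a secreted glial protein, rose from 5.64 to 13.47 (7.83), Sox9, which starts gliogenesis, by at least 5.52, and Ptprz1, a phosphatase of radial glia and precursors, by 5.12. Nfia, the factor that follows Sox9, ended at least 3.18 higher than on ES. Slc1a2 (at least 2.56), a glutamate transporter, Cd44 (2.19) and Ndrg2 (1.36) completed the rises. Another probe of Slc1a2 stood at 0.19 and another of Nfia at 0.56.

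The other members were level, lowered or not measured. Aldh1l1 changed by 0.16 and Slc1a3 (GLAST) by 0.94. S100b, Tnc and Gjb6 were not well above background on either array, and neither was the brightest probe of Gfap, although another Gfap probe went from 4.06 (not well above background) to 6.71, at least 1.70 higher. Gja1, a connexin of astrocytes that is also high in ES cells, fell from 11.45 to 6.99 (-4.46), and Aldoc (-1.43), Aqp4 (-1.38) and Hepacam (at least 1.30 lower) were lowered too.

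Oligodendrocyte genes were raised in 6 and lowered in 6 of 15 cases (23.2% and 24.4% over all genes), with a median of -0.10. Over those measured on both arrays the median was -0.76, with 3 raised. Pdgfra, a receptor of oligodendrocyte precursors and of mesenchyme, was raised by at least 2.58, and Gpr17, of committed precursors, by at least 2.75. Sox10, which defines the lineage, changed by 0.07, from 8.07 to 8.14. Of the myelin genes, Mbp (1.56, with another probe at -0.04), Cnp (1.04) and Cldn11 (at least 1.54) were raised. Mog (-1.92), Ugt8a (-2.33), Bcas1 (-1.78), Mobp (-1.34) and Myrf (at least 1.23 lower) were lowered, and Opalin and Enpp6 were not well above background on either array. Olig1, shared with motor neuron progenitors, completed the falls. No direction was common to the list.

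**Figure D3:**
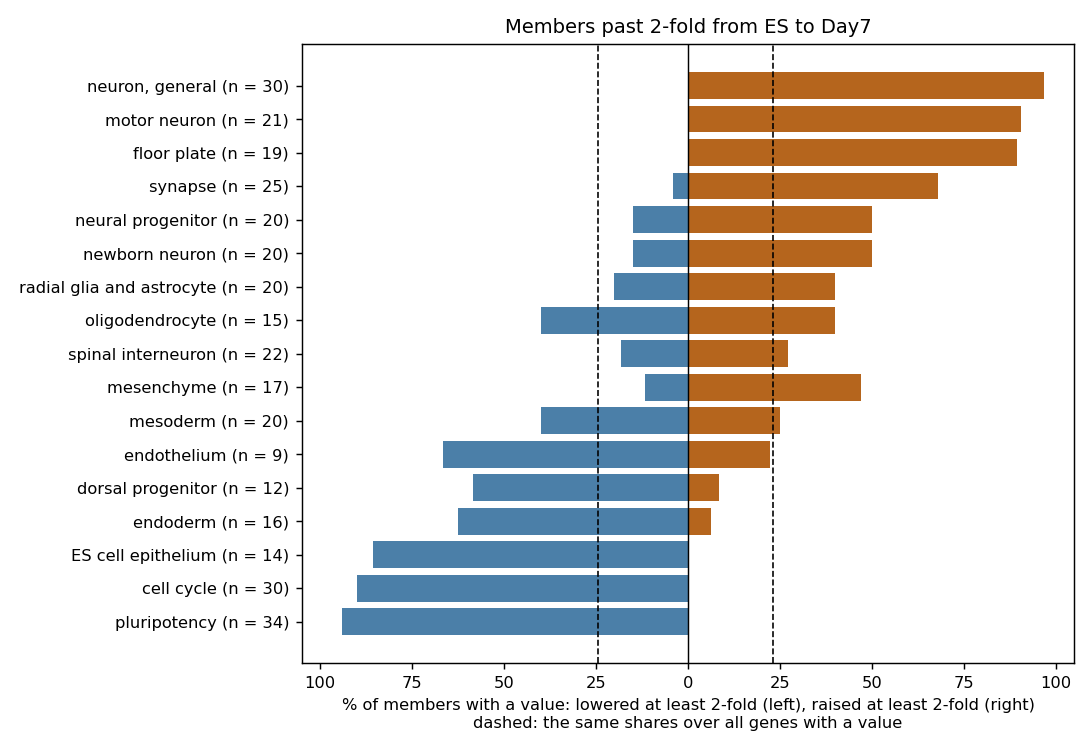
Share of members with a value (%) that were raised or lowered 2-fold or more from ES to Day7 in each gene list, beside the shares over all genes (23.2% raised and 24.4% lowered, dashed lines). Pan-neuronal, motor neuron and floor plate lists are almost all raised, and pluripotency and cell cycle lists almost all lowered.

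The genes of the pluripotent state fell but did not disappear. Of 34, none was raised and 32 were lowered, against 24.4% of all genes, with a median change of -3.46, and 31 were highest on ES, as were 25.8% of all genes. All 34 were well above background on Day7, where the signal was between 3.28% and 81.2% of that on ES, with a median of 9.08%. Under 10% remained for 19 of them, 10 to 50% for 13, and more than 50% for 2. Fgf4, a growth factor controlled by Oct4 and Sox2, fell most, from 14.31 to 9.38 (-4.93). Nr0b1 (-4.62), Tdh (-4.51), a threonine dehydrogenase of mouse ES cells, Utf1 (-4.48) and L1td1 (-4.35) followed Fgf4.

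Dppa5a, an RNA-binding protein that marks ES cells, fell at every step: its log2 level went from 17.57 on ES through 17.20, 16.72 and 16.11 to 14.80 on Day7, which is 14.6% of ES. Zfp42 (Rex1) kept 14.2% (-2.82). The members that were not lowered were Nanog and Tbx3. Nanog, a core factor of the pluripotency network, read 9.20, 6.79, 8.85, 9.98 and 8.80 from ES to Day7 (-0.40, 75.6% of ES), so that ES was not its highest array. Tbx3 read 10.87 on ES and 10.57 on Day7 (-0.30, 81.2%), and it is also a gene of visceral motor neurons and other tissues. Nanog had 1 matched probe.

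**Figure D4:**
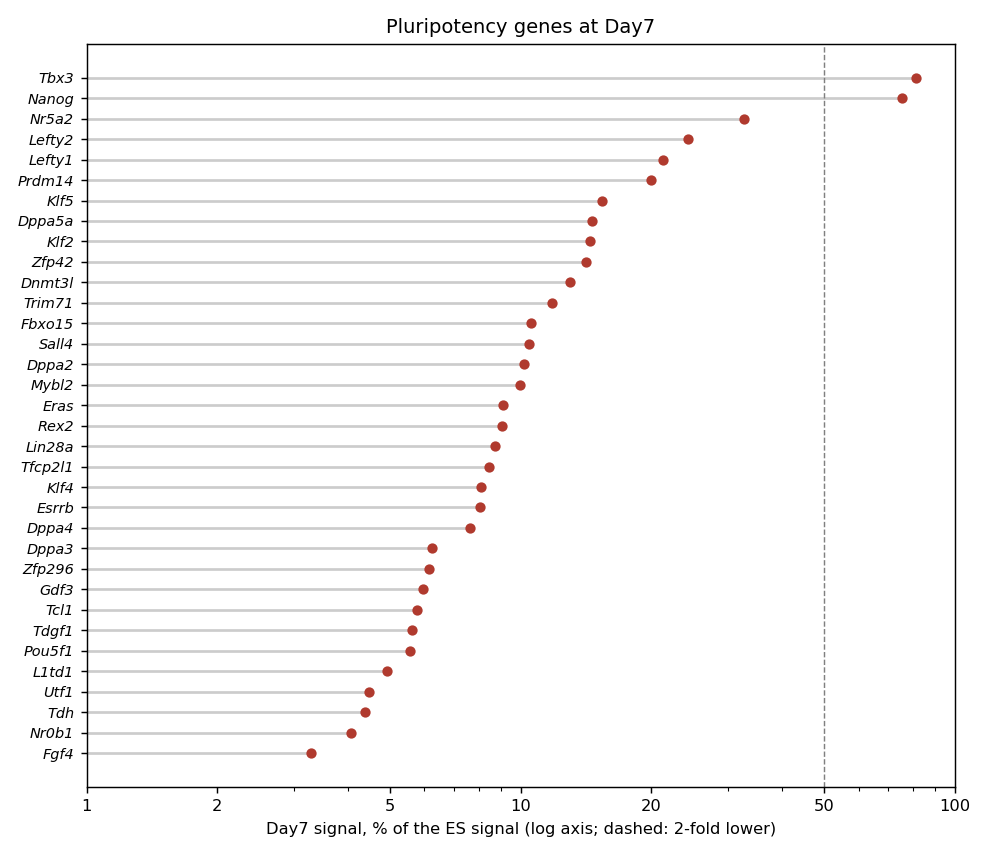
Signal on Day7 as a percentage of the ES signal (log axis) for 34 pluripotency genes, 1 point per gene; the dashed line marks 50%. The values run from 3.28% (Fgf4) to 81.2% (Tbx3), and only Nanog and Tbx3 lie above the line.

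Epithelial genes that ES cells share with many epithelia fell alongside, 12 of 14 being lowered and none raised (median -2.97). Cdh1 (E-cadherin) was 13.79 on ES, 12.69 on Day4 and 9.15 on Day7 (-4.64), most of the fall coming after Day4. Cldn7 (-4.47) and Cldn6 (-4.20) of tight junctions, the epithelial splicing factor Esrp1 (-4.39) and the adhesion protein Epcam (-4.07) fell by similar amounts. Krt18 (-0.84) and Lama1 (-0.33) did not pass 2-fold. Germ cell and 2-cell genes differed from the pluripotency list in that 4 of 13 were raised and 5 lowered. These shares were 30.8% and 38.5%, against 23.2% and 24.4% of all genes. Stra8, an RA-induced meiotic gene, was at 9.36 on ES, above 16 from Day2 to Day4 and at 13.91 on Day7 (4.55). Zscan4f and Zscan4c rose by at least 5.26 and 4.14, but near-identical copies of Zscan4 may share signal and the 2 are uncertain, and Dazl rose by 2.30.

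Genes of proliferation were mostly lowered. Of 30 cell cycle genes 27 were lowered and none was raised, with a median of -1.32 (-2.0 under scaling to the 75th percentile), and Day7 was the highest array for none of them. The Day7 signal was between 8.44% and 82.9% of ES, with a median of 40.0%. Ccne1, the cyclin of S phase entry that is constantly high in ES cells, fell most (-3.57), followed by the mitotic kinase Aurkb (-3.21). Mki67, the common proliferation marker, was 14.07 on ES, 15.12 on Day4 and 13.80 on Day7 (-0.27). Among 10 genes of cell cycle exit 6 were raised, led by the inhibitors Cdkn1c (p57, 2.68) and Cdkn2c (2.47) and the cyclin Ccng2 (2.02), while Gadd45a (-2.0) and Trp53inp1 (-1.46) were lowered.

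Markers of other lineages moved in both directions. Endoderm and extraembryonic genes were lowered in 10 of 16 cases with a value (62.5%, against 24.4% of all genes) and raised in 1, Cxcr4 (3.96), a chemokine receptor that neurons also use. Their defining genes Afp, Ttr, Alb and Hnf4a were not well above background on either array, and Sox17 was at least 1.61 lower. Mesoderm genes were lowered in 8 of 20 (40.0%, against 24.4% of all genes), with T, the mesoderm founder gene, at least 2.55 lower. Raised were 5 (25%, against 23.2%), Meox1 (at least 2.33), Foxc1 (at least 2.19), Osr1 (2.12), Foxc2 and Tbx5 (both at least 1.45). All of the raised ones except Tbx5 were higher on Day4 than on Day7. Epidermal genes were lowered in 5 and raised in 3 of 10 (Trp63 1.43, Krt15 at least 1.39, Gata3 1.07).

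Connective tissue genes were raised in part. Of 17 mesenchymal genes with a value 8 were raised (47.1%, against 23.2% of all genes) and 2 lowered (median 0.82, or 0.37 over those measured on both arrays). Col3a1 rose by 4.67 to 10.36, Dcn, a matrix proteoglycan, by 3.47 to 12.55, Pdgfrb by at least 3.09 and Col1a2 by 3.0. Thy1 (-3.54), a surface protein of fibroblasts and neurons, and Tagln (-1.54) were lowered. Of 9 endothelial genes 6 were lowered (66.7%, against 24.4% of all genes), and Cdh5 (at least 3.56) and Esam (1.21) were raised (22.2%, against 23.2%). Blood and microglia genes gave 2 raised and 2 lowered of 8, near the shares over all genes, the raised ones being the globins Hba-a1 (1.5) and Hbb-bh1 (1.45), both past their highest level by Day7.

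Hox genes mark position along the neural tube, low paralog groups in the hindbrain and anterior cord and high ones further back. In groups 1 to 5, 14 of 15 were raised (median 6.93, or 5.49 over those measured on both arrays), and Hoxb5 (at least 10.12) and Hoxc4 (at least 9.98) were among the 15 largest rises. In groups 6 to 13, 5 of 12 with a value were raised, Hoxb6 (8.49), Hoxb8 (at least 5.02), Hoxb7 (4.67), Hoxd8 (at least 1.17) and Hoxc6 (1.11). Lowered were 3, Hoxd13, Hoxb13 and Hoxc13 (at least 2.84, 2.79 and 2.32 lower), and 12 more had no value. The forebrain and midbrain genes gave 7 lowered of 11 with a value (63.6%, against 24.4% of all genes). Among these was Otx2, which marks both ES cells and the rostral brain, from 12.55 to 7.48 (-5.07). Raised were 2 (18.2%, against 23.2%), Six6 (at least 3.01) and Dlx5 (1.55).

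Stress genes were lowered in 8 of 18 cases (44.4%, against 24.4% of all genes). Raised were 2 (11.1%, against 23.2%), Vegfa (2.04) and the injury-responsive factor Jun (1.95). Housekeeping genes had a median of -0.13, with 14 of 19 changing by less than 2-fold. Actb (0.18), Gapdh (-0.13) and Ppia (-0.10) were nearly level. Hprt, a purine salvage enzyme, fell from 15.63 to 12.82 (-2.81) in steps over the course, and Ywhaz rose by 1.80. Hprt is therefore not a level reference in this comparison.

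The 15 largest rises, taken over all genes with bounds ranked at their bound, held members of the lists and others. Dcx, Fabp7, Hoxb5, Hoxc4 and Vtn are described above. Among the others were Sncg, gamma-synuclein of peripheral and motor axons (10.06), Sst, the neuropeptide somatostatin (at least 9.00), Ctnna2, the neuronal alpha-catenin (8.96), Rbms3 (at least 8.95), Kbtbd11 (8.80), Ptpn5, a neuronal phosphatase (at least 8.62), Lrrc4b, a synaptic adhesion protein (8.61), Pcp4, a calmodulin-binding peptide (8.60), and Ppp2r2b, a neuronal phosphatase subunit (at least 8.55). Sncg had been 7.54 on ES and 10.52 on Day4 before it reached 17.59. Kbtbd11 is uncertain, since another of its probes was at least 3.12 lower. Another probe of Ctnna2 stood at 1.73 and another of Rbms3 at 1.48.

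The 15 largest falls were led by Elk4 (-8.57), Cbr3, a carbonyl reductase (-6.27), Rims1 (-6.25), Urah (-6.24), Vrtn (-6.18) and Zic2 (at least 6.03 lower). Spink1 (-5.73), Sec14l4 (at least 5.68 lower), Pla2g1b (-5.64), Ly6g6e (at least 5.49 lower), Galnt3 (-5.48), Etv2 (-5.41), Epha1 (-5.34), Rbp7 (at least 5.34 lower) and Aoah (-5.31) made up the rest. Cbr3 shows the usual course among them, with log2 levels of 14.35, 13.32, 11.09, 9.41 and 8.08 in steps from ES to Day7. Elk4, a partner of serum response factor, did not: its brightest probe was level or rising at 15.21, 15.36, 15.61 and 17.06 and then 6.64 on Day7, while its other 2 probes changed by -0.88 and -0.17. Rims1 had the same shape, with 13.04, 13.28, 13.30, 15.02 and 6.79.

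That shape was shared with control probes that detect no mouse gene. The 10 probes for the E1A spike-in, an RNA that Agilent's kit adds to each labelling reaction, were lower on Day7 than on ES by a median of 7.92 log2 units (range of differences -10.14 to -2.70, before normalization between arrays), against a median difference of -0.25 (-0.72 to -0.07) between Day4 and ES. Of the mouse probes, 11 were level on slide 1, within 2.5 log2 units, and at least 4 log2 units lower on Day7 alone, and 5 of them had a symbol: Elk4, Rims1, Cnn1, Bicdl2 and Pilra. The part of the spike-in in the values of these probes was not tested. Rims1 and Elk4 are nevertheless counted above, Rims1 as the lowered synaptic gene and both among the 15 largest falls.

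**Figure D5:**
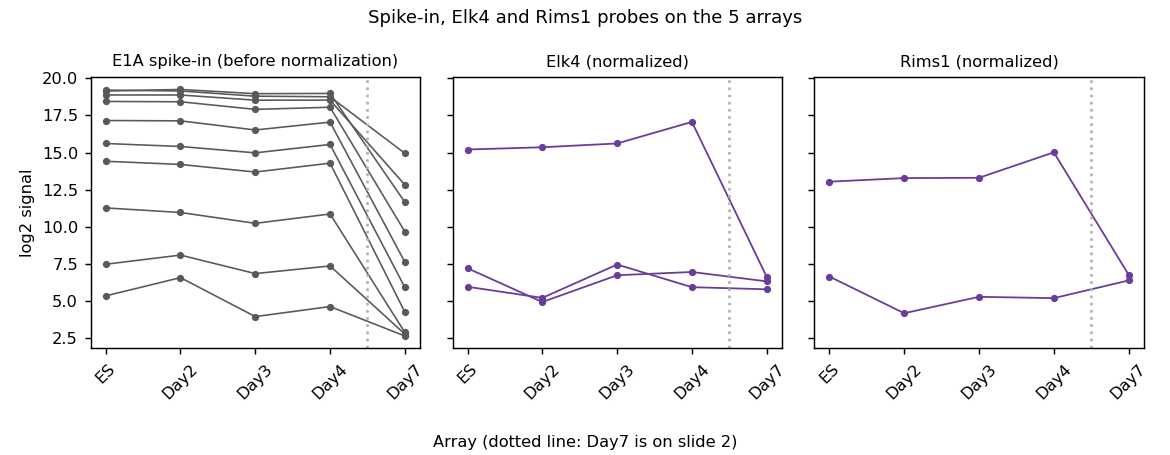
Log2 signal on the 5 arrays of 10 E1A spike-in probes (left, before normalization between arrays) and of the probes of Elk4 (middle) and Rims1 (right, both quantile-normalized), 1 line per probe; the dotted line separates slide 1 from Day7 on slide 2. The brightest Elk4 and Rims1 probes drop from 17.06 and 15.02 on Day4 to 6.64 and 6.79 on Day7, as the E1A probes also drop, and the other probes of both genes lie between 4.20 and 7.47 on all 5 arrays.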

How the data were processed

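Total RNA from 5 time points was measured on 1 Agilent array each, and ES and Day7 were compared. The scanner output deposited by the authors (Agilent Feature Extraction 10.5.1) holds the processed intensity of each spot, background-subtracted and not normalized between arrays. The authors also deposited a log2 table, which equals the log2 processed signal minus a constant per array near its 75th percentile (column medians -3.55 on ES and -3.67 on Day7). A total of 0 columns belonged to no sample.

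Log2 processed signals of non-control, non-outlier spots were averaged per probe and quantile-normalized over the 5 arrays (limma 3.58.1, R 4.3.3; Python 3.11.15, numpy 2.4.6, pandas 2.3.3, matplotlib 3.10.9). Of 55681 probes, 26294 matched RefSeq accessions (GRCm38.p6, names and promoters only). A gene with several probes (5337 genes) was read from its brightest, by the mean over the 5 arrays. A gene needed a probe well above background on at least 1 of the 2 arrays, and a gene without a fold entered medians at 0. No probe used was saturated (0 genes).

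The 34 lists described were chosen with earlier results of these data known. Named were the markers, the largest changes of each list, its members that moved against it, and the 15 largest rises and falls. Some genes that this rule names are not reported here, though they count in the totals of their lists. The steps that compute and call a change were tested on simulated data, with large changes added to bright probes of the ES array. Normalization, the choice of probe and the matching to genes were not tested in this way. Alternatives were other normalizations (75th percentile, none, over 4 arrays or over 2), normexp with offset 50, the deposited table, other filters on dim probes, the mean over probes, and thresholds of 1.5-fold and 4-fold.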

Additional observations from a re-analysis of the deposited data

Results flagged for a closer look

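The E1A spike-in probes, which belong to no comparison of the study, stood apart on the Day7 array: the median log2 difference from ES over the 10 probes was -7.92. Between Day4 and ES, both on slide 1, the median difference was -0.25. Why they were low on Day7 was not tested.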

How the results depend on the processing

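No paired analysis was possible because ES and Day7 were measured on 1 array each, and for the same reason no array could be left out. A block for the slide could not be fitted, since slide 2 held Day7 alone. Against the values reported, 314 of 340 list medians and 731 of 840 counts over all alternatives stayed within the tolerance, and 26 and 109 moved. A reversal was looked for only in medians and single genes with a reported change of at least 1 log2 unit, and not in counts. No median reversed by that rule. Of 5290 values of single genes, 4786 stayed, 503 moved and 1 reversed: Ntrk2 rose by 1.24 with the mean over its probes. Shifting each array to its 75th percentile moved the median of all genes from -0.07 to -0.35 (-0.35 in the deposited table), raised genes from 48.7% to 39.1% of those called (39.2%), and the cell cycle median from -1.32 to -2.0 (-1.99). Raised genes outnumbered lowered ones with no normalization (4129 and 3609) and with normexp (3129 and 3030). The floor plate median was 4.02 with genes above background on both arrays, 5.37 with the laxer detection flag (positive and significant) and 3.81 with normexp, which also gave 4.21 for motor neurons. With genes above background on both arrays, the oligodendrocyte median was -0.76 with 3 raised, and 5 astrocyte and radial glia genes were raised. At 4-fold, 1861 genes were raised and 1326 lowered, with 6 cell cycle genes lowered and 2 oligodendrocyte genes raised. Dim probes set the limit of detection: 4062 genes were well above background on neither array.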
